A study of Mus musculus with 32 samples.

Results

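The MHC class II presentation genes were followed in 32 mouse mesothelioma tumors. The group was set by symbol and comprised 10 genes, of which 8 had a row among the 39676 genes of the count table, namely H2-Aa, H2-Ab1, H2-Eb1, H2-DMa, H2-DMb1, H2-DMb2, H2-Oa and H2-Ob. Cd74 and Ciita were not analysed here. AB1 and AE17, murine mesothelioma cell lines, were injected into untreated adult female mice of the strain each line came from. The AB1 IPL and AB1 SC groups were grown in BALB/c mice from 500000 cells placed in the pleural cavity (intrapleural, IPL) or under the skin of the flank (subcutaneous, SC). AE17 IPL and AE17 SC tumors grew at the same sites in C57BL/6 mice from 1000000 cells. Each of the 4 groups held 8 mice, whose tumors were collected on day 10. Both models rest on 1 transplanted line each, the hosts kept their immune system, and RNA came from bulk tumors, which by the study's methods were freed of lung and adjoining tissue after harvest.

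MHC class II molecules are pairs of an alpha and a beta chain that carry peptides from endosomes to the cell surface, where CD4+ T cells read them. In mice, H2-Aa and H2-Ab1 encode the alpha and beta chains of I-A, and H2-Eb1 encodes the beta chain of I-E. H2-DMa pairs with H2-DMb1 or H2-DMb2 to form DM, the chaperone that exchanges peptides on class II, and H2-Oa and H2-Ob form DO, which inhibits DM and is made mostly by B cells and some dendritic cells. Class II genes are on in dendritic cells, B cells and activated macrophages, and interferon gamma turns them on in many other cells. Their promoters share a run of short boxes, read by the RFX complex (Rfx5, Rfxap and Rfxank) at the X box and by NF-Y at the Y box, which recruit the class II transactivator Ciita. BALB/c mice carry the H2-d form of this region and C57BL/6 mice the H2-b form, which makes no I-E alpha chain because its gene lacks a promoter.

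All 8 genes lie on chromosome 17 of GRCm38 (GENCODE M21), within 1 stretch of the MHC. H2-Oa (ENSMUSG00000024334.8) is at chr17:34092340-34095234 and H2-DMa (ENSMUSG00000037649.9) at chr17:34119541-34139101. H2-DMb2 (ENSMUSG00000037548.14) at chr17:34143307-34151555 is followed by its near-identical copy H2-DMb1 (ENSMUSG00000079547.3) at chr17:34153072-34160230. H2-Ob (ENSMUSG00000041538.15) is at chr17:34238903-34254414 and H2-Ab1 (ENSMUSG00000073421.5) at chr17:34257689-34269419. H2-Aa (ENSMUSG00000036594.14) at chr17:34282744-34287823 is the only one of the 8 on the minus strand, and H2-Eb1 (ENSMUSG00000060586.10) is at chr17:34305867-34316674.

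To show what members that moved together and members that did not had near their start sites, 60 bases around the ATTGG nearest the start are printed for 7 members. They run 5′ to 3′ on the strand of the gene and come from RefSeq on GRCm38.p6. Starts are those of RefSeq and can differ from the GENCODE bounds above. The stretches of H2-DMa, H2-DMb1 and H2-DMb2 lie inside those bounds, and that of H2-Oa reaches into them. The first 5 (H2-Aa, H2-Eb1, H2-DMb1, H2-DMb2 and H2-DMa) were lower in AB1 IPL than in AB1 SC tumors, and the last 2 (H2-Oa and H2-Ob) did not pass that test in edgeR. Capitals mark ATTGG, the core of the Y box, and AACNNATG, a spelling picked after the promoters had been read. The stretches lie at chr17:34287857-34287916 (minus strand), chr17:34305763-34305822, chr17:34153085-34153144, chr17:34145114-34145173, chr17:34125275-34125334, chr17:34092291-34092350 and chr17:34238803-34238862, in the order of the lines.
H2-Aa: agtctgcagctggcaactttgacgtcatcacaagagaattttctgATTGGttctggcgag
H2-Eb1: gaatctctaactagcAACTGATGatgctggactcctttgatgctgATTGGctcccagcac
H2-DMb1: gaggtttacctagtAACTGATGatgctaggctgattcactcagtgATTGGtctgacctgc
H2-DMb2: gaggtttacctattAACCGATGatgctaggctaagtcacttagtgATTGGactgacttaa
H2-DMa: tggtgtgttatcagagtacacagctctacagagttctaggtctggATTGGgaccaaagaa
H2-Oa: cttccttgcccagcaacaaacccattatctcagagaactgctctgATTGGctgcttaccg
H2-Ob: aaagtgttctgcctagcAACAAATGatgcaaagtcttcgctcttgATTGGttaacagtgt

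A promoter entry of 250 bases before to 50 after the start was found for 7 of the 10 genes, and all 7 held ATTGG upstream on the gene's own strand. On that strand ATTGG was present in 22.1% of 32851 mouse promoters, and in 37.4% on either strand. AACNNATG stood 28 to 31 bases before the Y box of H2-Eb1, H2-DMb1, H2-DMb2 and H2-Ob, and was present in 4.5% of all promoters on the gene's strand and in 8.86% on either. AGNAACNG, a spelling of the site of RFX that overlaps AACNNATG, was found on either strand in 3 of the 7 entries and in 17.4% of all promoters. In H2-DMa the ATTGG began 198 bases before the start and AACNNATG was not found, and in the other 6 printed members the ATTGG began 43 to 90 bases before the start. The stretches of H2-DMb1 and H2-DMb2 had the same base at 51 of 60 positions. H2-Ob shared ATTGG and AACNNATG with H2-Eb1 and the H2-DMb copies, although its counts followed another course across the tumors. These matches describe letters and not binding.

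Between 15432258 and 20649645 reads were counted per tumor, and the 8 genes together took between 0.0437% and 0.456% of them. The alignments were labelled with 3 sequencing lanes, which overlapped with site: all AB1 IPL tumors and AB1 SC replicates 1 and 2 ran on lane 3, AB1 SC replicates 3 to 8 and AE17 IPL replicates 1 to 5 on lane 2, and AE17 IPL replicates 6 to 8 and all AE17 SC tumors on lane 1. Each tumor is a separate mouse, so p-values measure the spread between mice. In RNA from whole tumors, fewer cells of a type and less RNA per cell cannot be told apart. Of 6 mesothelial markers 4 had a row, and most of their summed level came from Pdpn, a mucin-type surface protein of mesothelium and other cells. Levels are in CPM, the counts per 1000000 of a tumor's total count after scaling by a factor for library composition (TMM). The sum was 75.5 to 255 CPM in AB1 IPL, 76.1 to 106 in AB1 SC, 124 to 228 in AE17 IPL and 114 to 195 in AE17 SC tumors. Upk3b, Wt1 and Krt19 had 0 counts in at least 1 tumor each. AE17 IPL replicates 5 and 8 stood apart in B cell markers, whose sum was 326 and 275 CPM there, and results that rest on them are given with and without them. They also had the highest sums of their group for T cell markers (71.9 and 59.9 CPM), adipocyte markers (297 and 16.05 CPM) and Ptprc (365 and 372 CPM), and replicate 5 had the highest thymocyte sum (24.4 CPM).

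In AB1 tumors, 6 of the 8 genes were lower at the pleural site than under the skin, by 2.06-fold to 2.40-fold. These were the 3 presenting chains and the 3 DM chains, while the DO chains H2-Oa and H2-Ob did not pass edgeR's test. Of all genes tested, 23% passed in this comparison and 10.7% were lower at the pleural site. The median log2 fold change of the 8 genes was -1.11, and that of all genes was -0.0023.

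H2-Aa, the I-A alpha chain, was at 128, 465 and 629 CPM (lowest, median and highest) in AB1 IPL and at 605, 992 and 1295 CPM in AB1 SC tumors. Its log2 fold change was -1.17 ± 0.25 (SE, n = 8 and 8), with a 95% interval from -1.70 to -0.65 (edgeR quasi-likelihood test, Benjamini-Hochberg adjusted p = 0.0025). Of the 8 IPL tumors, 7 were below every SC tumor, and IPL replicate 4 was just above the lowest SC tumor. H2-Ab1, its beta chain partner, was at 104, 406 and 546 CPM in IPL and 503, 825 and 1044.5 CPM in SC tumors, which gave a log2 fold change of -1.11 ± 0.25 (adjusted p = 0.00386). H2-Eb1, the I-E beta chain, was at 109.7, 481 and 653 CPM in IPL and 604, 948 and 1249.9 CPM in SC tumors, which gave a log2 fold change of -1.04 ± 0.26 (adjusted p = 0.00804). For both beta chains, too, IPL replicate 4 was the 1 tumor that reached into the range of the SC tumors.

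The DM chains separated the sites completely. H2-DMa, the alpha chain of the peptide exchanger, was at 33.9, 75.6 and 89.9 CPM in AB1 IPL and 111, 155 and 203 CPM in AB1 SC tumors, which gave a log2 fold change of -1.11 ± 0.17 (adjusted p = 0.00023). H2-DMb1, 1 of its beta chains, was at 31.8, 94.0 and 115 CPM in IPL and 136, 211 and 251 CPM in SC tumors, which gave a log2 fold change of -1.26 ± 0.21 (adjusted p = 0.000342). H2-DMb2, the copy of H2-DMb1, was at 25.2, 77.4 and 96.7 CPM in IPL and 112, 169 and 199.6 CPM in SC tumors, which gave a log2 fold change of -1.23 ± 0.21 (adjusted p = 0.000483). For these 3 genes every IPL tumor was below every SC tumor, as for 2.53% of all genes tested. Reads of 50 bases from H2-DMb1 and H2-DMb2 can be shared between the copies, so their values are not separate evidence.

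The DO chains did not pass edgeR's test. H2-Oa, the alpha chain of the DM inhibitor, was at 0.758, 1.46 and 2.87 CPM in AB1 IPL and 1.75, 2.50 and 2.78 CPM in AB1 SC tumors, with a log2 fold change of -0.61 ± 0.24 and an interval from -1.12 to -0.10 that did not pass after adjustment (adjusted p = 0.0787). It passed when AB1 IPL replicate 2 (-0.78, adjusted p = 0.0156) or replicate 4 (-0.72, adjusted p = 0.0426) was left out, and limma-voom called it lower (-0.84, adjusted p = 0.00427). Of the 8 IPL tumors, 5 were below every SC tumor and 1 was above every SC tumor. H2-Ob, its beta chain, was at 0.783, 4.82 and 8.60 CPM in IPL and 3.89, 4.57 and 6.63 CPM in SC tumors, with a log2 fold change of -0.05 and an interval from -0.68 to 0.58 (adjusted p = 0.918). For H2-Ob, 2 IPL tumors were below every SC tumor and 1 was above.

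**Figure D1:**
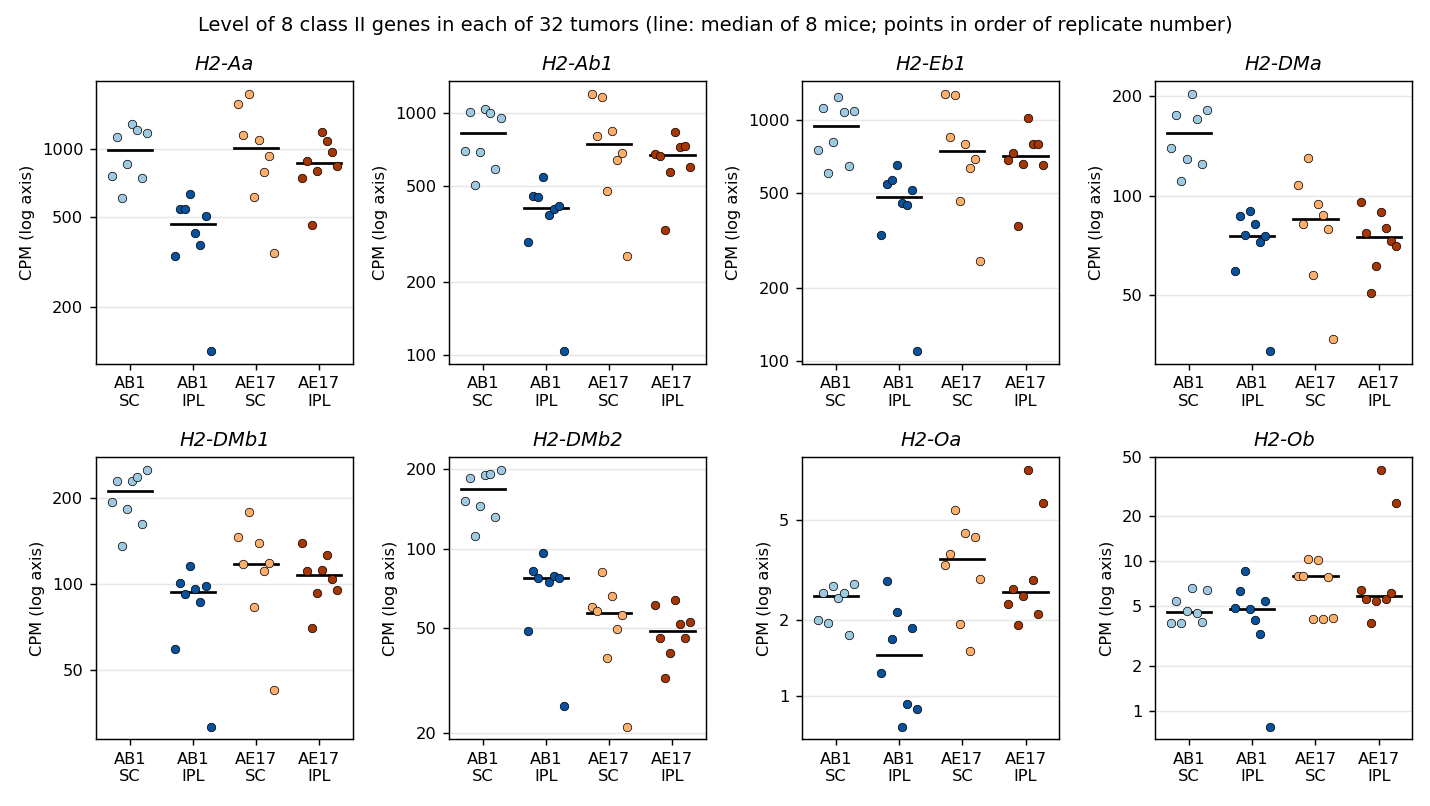
CPM on a log axis of each of the 8 genes in every tumor, in 1 panel per gene. Points are tumors, lines are group medians of 8 mice, with SC before IPL in each model. The AB1 IPL points of H2-DMa, H2-DMb1 and H2-DMb2 all lie below the AB1 SC points, and 2 AE17 IPL points stand above the others for H2-Ob (41.2 and 24.5 CPM).

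Lane moved with site in AB1. Within lane 3, where 8 IPL tumors met 2 SC tumors, the log2 fold changes of the 6 genes were -1.13 to -1.38, about the size of those over all lanes, and none passed (adjusted p = 0.0646 to 0.308, edgeR), although 6 of 8 had an unadjusted p under 0.05. A fit with lane as a covariate called H2-DMa (-1.14, adjusted p = 0.0279), H2-DMb1 (-1.32, 0.0295) and H2-DMb2 (-1.28, 0.0368). In that fit H2-Aa (-1.13, adjusted p = 0.127), H2-Ab1 (-1.18, 0.107) and H2-Eb1 (-1.07, 0.173) did not pass.

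The presenting and DM chains varied together from tumor to tumor. AB1 IPL replicate 8 had the lowest value in its group for 7 of the 8 genes, and AB1 SC replicate 3 had the lowest for 7. In AE17 IPL, replicate 3 was lowest for all 8. After each tumor's distance from its group mean was taken on the log2 scale, Pearson's r over the 32 tumors was 0.983 to 0.994 among the presenting chains, 0.961 to 0.976 among the DM chains and 0.930 to 0.957 between both sets. H2-Oa was looser, at 0.410 to 0.565 with these 6, as was H2-Ob at 0.551 to 0.688, and the DO chains had an r of 0.808 with each other. The genes share each library's depth and cell mixture, so these values are descriptions.

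Markers of antigen-presenting and other immune cells moved with the AB1 difference. All 8 dendritic cell markers had a row, and their summed level was 49.3 to 106 CPM in AB1 IPL and 122 to 268 CPM in AB1 SC tumors, without overlap. Itgax, which encodes CD11c, made up most of that gap, with a median of 449 reads in IPL and 2029 in SC tumors, while the read counts of each of the other 7 markers overlapped between the sites. Of the 8, 4 were lower at the pleural site and none was higher, among them Itgax (log2 fold change -2.15), Batf3, a transcription factor of cross-presenting dendritic cells (-1.33), and Cd209a (-1.04). Ptprc, which encodes the leukocyte protein CD45, was at 35.6 to 182 CPM in IPL and 204 to 396 CPM in SC tumors (log2 fold change -1.18, adjusted p = 0.00183).

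The other marker lists were mixed in AB1. All 4 T cell markers with a row were lower, and their sum was 8.56 to 38.3 CPM in IPL against 41.4 to 82.0 CPM in SC tumors. Of 4 monocyte markers 2 were lower (sums of 299 to 490 against 471 to 777 CPM), and of 7 macrophage markers 3 were lower (1588 to 3148 against 2216 to 3334 CPM). Of 5 B cell markers tested, 3 were higher at the pleural site and 1 was lower, with sums of 20.7 to 101 against 25.3 to 35.6 CPM. All 3 skeletal muscle markers were higher in AB1 IPL tumors, with a median log2 fold change of 3.67, as was 1 of 3 adipocyte markers. None of the markers tested for keratinocytes (1), thymocytes (1), Langerhans cells (1) and mesothelium (2) passed, while Napsa, the 1 alveolar type II marker tested, was lower. When lane was a covariate, 1 dendritic cell marker and 1 T cell marker passed, and no marker of the other lists. The part of these cells and of host tissue in the class II values was not tested.

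AB1 IPL replicate 4 had the highest value of its group for 6 of the 8 genes. It also had the highest T cell marker sum of its group (38.3 CPM) and the lowest Ptprc (35.6 CPM), with a dendritic cell sum of 84.9 CPM.

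In AE17 tumors no difference between sites was detected in the 8 genes. None passed edgeR's test, none had an unadjusted p under 0.05, and DESeq2 and limma-voom also called none, with 1 gene at an unadjusted p under 0.05 in limma-voom. Of all genes tested in AE17, 5.73% passed and 3.13% were lower at the pleural site. The median log2 fold change of the 8 was -0.13.

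H2-Aa was at 462, 863 and 1185 CPM (lowest, median and highest) in AE17 IPL and 347, 1014 and 1750.4 CPM in AE17 SC tumors, with a log2 fold change of -0.24 and an interval from -0.81 to 0.32 (adjusted p = 0.613). H2-DMb1 was at 70.4, 107 and 139.6 CPM in IPL and 42.5, 118 and 178 CPM in SC tumors, with a log2 fold change of -0.13 and an interval from -0.58 to 0.31 (adjusted p = 0.736). For all 8 genes the ranges of IPL and SC tumors overlapped, and for the presenting and DM chains the SC tumors spread further in both directions. The remaining intervals were -0.78 to 0.30 for H2-Ab1, -0.70 to 0.44 for H2-Eb1, -0.59 to 0.24 for H2-DMa and -0.57 to 0.30 for H2-DMb2, so that a fall at the pleural site by 1.04 (H2-Eb1) or more on the log2 scale, as estimated in AB1, lay outside the AE17 interval of each of the 6. Within lane 1, with 3 IPL and 8 SC tumors, none of the 8 passed and the log2 fold changes were -0.18 to 0.76. Ptprc had a log2 fold change of 0.01 in AE17, and the dendritic cell sum was 88.0 to 154 CPM in IPL and 75.9 to 238 CPM in SC tumors. Of the 8 dendritic cell markers 1 passed (Cd209a, -1.72), and none (0) did with lane as a covariate. Without AE17 IPL replicates 5 and 8, 3 of the 8 markers were lower at the pleural site (Cd209a, -1.87) and the 8 class II genes still had no call.

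**Figure D2:**
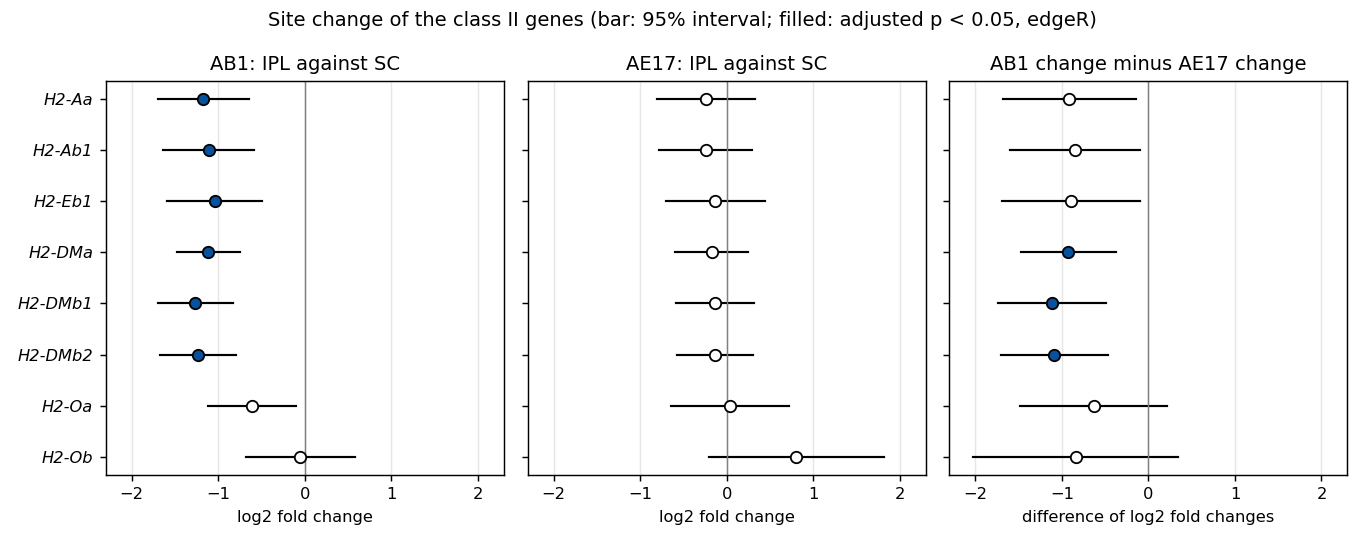
Log2 fold change of IPL against SC tumors for each of the 8 genes in AB1 (left) and in AE17 (middle), and the difference of these changes (right), with 95% intervals from edgeR (8 mice per group) and filled points for an adjusted p under 0.05. The 6 presenting and DM chains lie between -1.26 and -1.04 in AB1 and between -0.24 and -0.13 in AE17.

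Whether the change between sites differed between the models was tested in 1 fit of all 32 tumors. The difference, AB1 minus AE17, passed for the 3 DM chains, where 20.5% of all genes passed. It was -0.93 for H2-DMa (adjusted p = 0.0147), -1.11 for H2-DMb1 (0.00984) and -1.09 for H2-DMb2 (0.0111). The presenting chains had differences of similar size and wider errors, -0.91 for H2-Aa (interval -1.68 to -0.14, adjusted p = 0.0849), -0.85 for H2-Ab1 (0.101) and -0.90 for H2-Eb1 (0.104). H2-Oa (-0.63, adjusted p = 0.308) and H2-Ob (-0.84, 0.334) did not pass. Without AE17 IPL replicates 5 and 8 the difference for H2-Ob was 0.32 (adjusted p = 0.634). With 1 tumor left out that for H2-Oa was -0.82 to -0.35. H2-Aa passed when AE17 SC replicate 1 (adjusted p = 0.0483) or replicate 3 (0.0385) was left out. None of the 8 passed with lane as a covariate, when the DM chains had differences of -0.95 to -1.20 (adjusted p = 0.16 to 0.221). The difference for Ptprc was -1.17 (adjusted p = 0.0115), and -1.10 with lane as a covariate (0.241).

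H2-Ob and H2-Oa, the DO chains, were set apart in AE17 IPL by 2 tumors. H2-Ob was at 41.2 CPM in AE17 IPL replicate 5 and 24.5 CPM in replicate 8, and at 3.89 to 6.47 CPM in the other 6, while AE17 SC tumors were at 4.09, 7.92 and 10.3 CPM (lowest, median and highest). H2-Oa was at 7.905 and 5.80 CPM in replicates 5 and 8, and at 1.92 to 2.88 CPM in the other 6, against 1.51, 3.49 and 5.45 CPM in SC tumors. These were the same tumors with the highest B cell marker sums, 326 and 275 CPM, where AE17 IPL tumors began at 61.9 CPM and AE17 SC tumors ran from 14.9 to 66.2 CPM, and with the T cell, adipocyte and Ptprc values given above.

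The pleural estimate for the DO chains turned with those tumors. Over all tumors H2-Ob had a log2 fold change of 0.81 ± 0.48 (interval -0.20 to 1.82, adjusted p = 0.305). Without replicate 5 it was 0.21, without replicate 8 it was 0.59, and without both it was -0.36 (adjusted p = 0.355). H2-Oa had 0.04 over all tumors and -0.51 without both (adjusted p = 0.209). Of the 4 B cell markers tested in AE17, 2 were higher at the pleural site, Cd79a, which encodes a chain of the B cell receptor complex (log2 fold change 4.07, adjusted p = 0.0338), and Pax5, a transcription factor of the B lineage (1.41, 0.0187). With lane as a covariate none (0) of the 4 passed. Without replicates 5 and 8 only Pax5 passed among the 4 (1.32, adjusted p = 0.0334), while Cd79a had 1.03 (0.145), Cd22 had 0.19 (0.726) and Cd79b had -0.44 (0.315). The part of B cells, or of the other cells with high markers there, in the DO values was not tested.

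**Figure D3:**
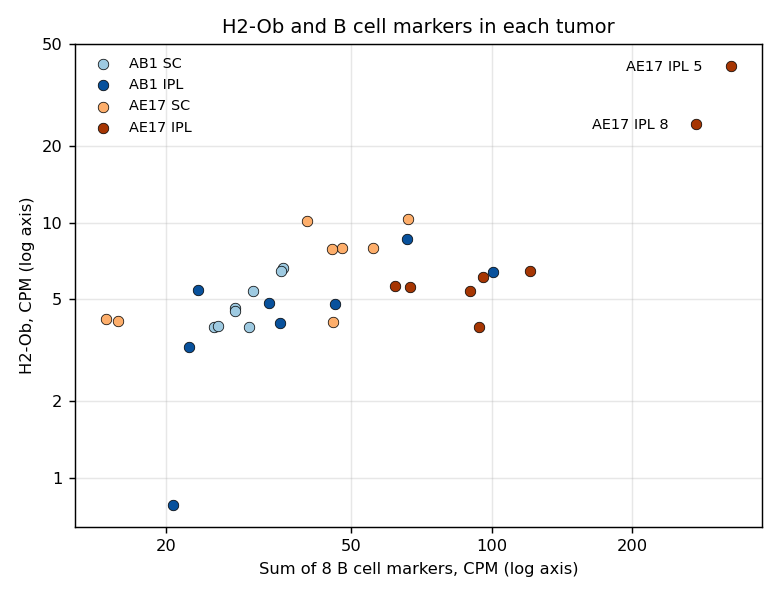
H2-Ob in CPM against the summed CPM of 8 B cell markers in each of the 32 tumors, both on log axes, colored by group of 8 mice. AE17 IPL replicates 5 and 8 lie at the upper right, at 41.2 and 24.5 CPM of H2-Ob and 326 and 275 CPM of the markers.

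Per kilobase of exon the order of the levels was the same in all 4 groups, H2-Eb1 over H2-Ab1, H2-Aa, H2-DMb1, H2-DMb2, H2-DMa, H2-Oa and H2-Ob. In AB1 SC tumors the medians were 488, 321, 261, 125, 96.6, 45.0, 1.78 and 0.849 CPM per kilobase. Among neighbors in this order, H2-DMa and H2-Oa were the only ones whose ranges did not overlap in any group. H2-Oa per kilobase came to a median of 5.65% of H2-DMa in AB1 IPL, 3.64% in AB1 SC, 9.04% in AE17 IPL and 10.6% in AE17 SC tumors.

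Within a tumor the partners of a complex kept to a narrow range of proportions. H2-Aa over H2-Ab1, per kilobase, was 0.634 to 0.853 in AB1 and 0.741 to 1.01 in AE17 tumors, while H2-Aa itself ranged from 128 to 1750.4 CPM. H2-DMa over the sum of H2-DMb1 and H2-DMb2 was 0.195 to 0.295 in AB1 and 0.222 to 0.286 in AE17 tumors. H2-Ob over H2-Oa was less even, at 0.231 to 1.40 over the 32 tumors. At the low counts of these genes, down to 14 reads for H2-Oa and 15 for H2-Ob, counting error alone is wide.

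In SC tumors, H2-DMb2 differed most between the models. It was at 112, 169 and 199.6 CPM (lowest, median and highest) in AB1 and 21.15, 57.0 and 81.8 CPM in AE17, with a log2 difference of 1.59 ± 0.21 (AB1 over AE17, edgeR, adjusted p = 3.5e-06). H2-DMa (0.86, adjusted p = 0.00129) and H2-DMb1 (0.78, 0.00415) were also higher in AB1 SC tumors. H2-Oa (-0.56, adjusted p = 0.0326) and H2-Ob (-0.54, 0.0365) were lower, and these calls were lost in 7 and 10 of 16 fits that left out 1 tumor. The presenting chains were at similar levels, with log2 differences of -0.10 for H2-Aa, 0.08 for H2-Ab1 and 0.22 for H2-Eb1 (adjusted p = 0.766, 0.792 and 0.477). So 5 of 8 passed, where 63.7% of all genes did. In 1 fit of all 32 tumors, where 9138 of the 15681 genes tested passed, the DM chains passed and the DO chains did not (H2-Oa -0.55, adjusted p = 0.111, and H2-Ob -0.53, 0.282). When lane was added to that fit, H2-DMb2 alone passed (1.63, adjusted p = 0.00183), and H2-DMa (0.85, 0.0633) and H2-DMb1 (0.81, 0.119) kept their size without the call, while 5268 of the 15681 genes tested passed.

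In IPL tumors 6 of 8 passed between the models, where 59.1% of all genes did. H2-Aa (-0.98, adjusted p = 0.00289), H2-Ab1 (-0.74, 0.0174), H2-Eb1 (-0.64, 0.0481), H2-Oa (-1.16, 0.00831) and H2-Ob (-1.36, 0.0347) were lower in AB1, and H2-DMb2 was higher (0.54, 0.0388). Without AE17 IPL replicates 5 and 8, 3 of the 8 passed, where 8420 of 15154 genes did. The call was then lost for H2-Eb1 (-0.56), H2-Oa (-0.62) and H2-Ob (-0.20). H2-Ob was also not called by DESeq2 (-0.72, adjusted p = 0.136) or limma-voom (-0.66, 0.208). Leaving out 1 tumor at a time lost the call of H2-Eb1 in 11, of H2-DMb2 in 12 and of H2-Ob in 7 of 16 fits. In the fit of all 32 tumors the same number, 6, passed, where 9940 of the 15681 genes tested did. When lane was added none (0) of the 8 passed or had an unadjusted p under 0.05, while 5008 of the 15681 genes passed. The log2 differences were then -0.84 for H2-Aa, -0.80 for H2-Ab1, -0.66 for H2-Eb1, -1.11 for H2-Oa, -1.28 for H2-Ob and 0.47 for H2-DMb2 (adjusted p = 0.163 to 0.455). Strain, cell line, number of cells and the match of H2-d or H2-b reads to a C57BL/6 reference go with the model and cannot be told apart.

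The balance of the H2-DMb copies marked the model rather than the site. H2-DMb1 over H2-DMb2, per kilobase, was 1.15 to 1.33 in AB1 IPL and 1.25 to 1.32 in AB1 SC tumors, against 1.83 to 2.53 in AE17 IPL and 2.09 to 2.52 in AE17 SC tumors. The lowest AE17 IPL ratios were those of replicates 5 and 8, at 1.83 and 1.88. How reads of each allele divide between the near-identical copies was not tested.

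**Figure D4:**
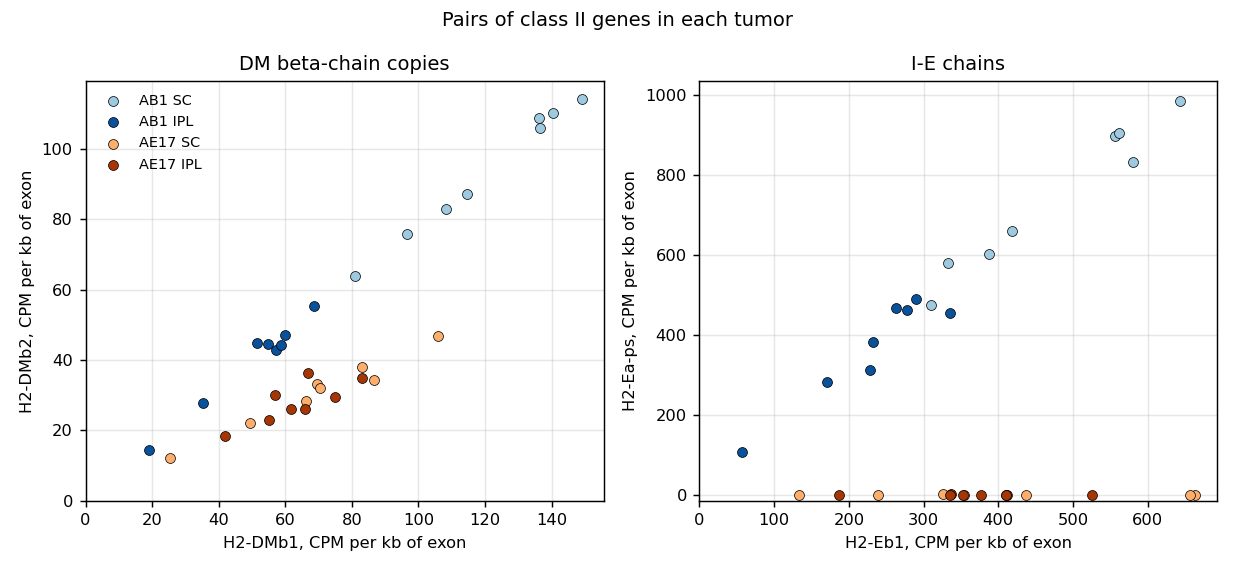
H2-DMb2 against H2-DMb1 (left) and H2-Ea-ps against H2-Eb1 (right) in CPM per kilobase of exon in each of the 32 tumors, on linear axes, colored by group of 8 mice. H2-DMb1 over H2-DMb2 follows 1 line in AB1 (ratio 1.15 to 1.33) and another in AE17 (1.83 to 2.53), and H2-Ea-ps lies at 1.35 to 1.91 times H2-Eb1 in AB1 and at or near 0 in AE17.

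Of the other class II genes of the region, H2-Ea-ps differed most between the models. H2-Ea-ps, annotated as a polymorphic pseudogene at chr17:34341959-34344645, is the I-E alpha locus that H2-b mice do not express. It was at 112, 433 and 507 CPM in AB1 IPL and 492, 773 and 1020.1 CPM in AB1 SC tumors. In AE17 it was at 0 to 0.953 CPM in IPL and 0 to 1.63 CPM in SC tumors, where 3 reads are worth 0.165 to 0.187 CPM before TMM scaling. Its log2 fold change between sites in AB1 was -1.02 (adjusted p = 0.00545), beside -1.04 for its partner H2-Eb1. It did not pass with lane as a covariate (-0.97) or within lane 3 (-1.02). Per kilobase it was 1.35 to 1.91 times H2-Eb1 in AB1 IPL and 1.43 to 1.74 times in AB1 SC tumors. H2-Eb2, a second I-E beta gene, was at 0.0505 to 0.582 CPM in AB1 and 0.680 to 6.40 CPM in AE17 tumors, and its log2 fold change between sites in AE17 was 0.12, with an interval from -0.95 to 1.18. AE17 IPL replicates 5 and 8 were at 6.40 and 5.41 CPM and the other 6 IPL tumors at 0.680 to 1.78 CPM, and without those replicates the log2 fold change of H2-Eb2 was -0.94 (adjusted p = 0.138). Of 5 other class II genes listed, 4 had a row and 1 was tested between sites in each model.

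The factors that read class II promoters did not move with the members. Of 10 listed, all were tested in AB1 and 1 passed, Rfxank, which was higher at the pleural site (log2 fold change 0.35, adjusted p = 0.0116). Rfx5 had -0.22 (adjusted p = 0.106) and Rfxap 0.22 (0.0767), and the median of the list was -0.02. With lane as a covariate none (0) of the 10 passed, Rfxank included, and within lane 3 none (0) did. In AE17 none of the 10 passed edgeR's test.

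Genes of the interferon gamma axis were lower at the pleural site in AB1, 8 of the 8 with a row, with a median log2 fold change of -0.71. Cxcl9 (-1.55), Cxcl10 (-1.21) and Gbp2 (-1.21) are induced by the cytokine, and Irf1 (-0.71) is a transcription factor it induces. With lane as a covariate 1 of the 8 passed and all 8 were negative, with a median of -0.59, and within lane 3 none passed, with a median of -0.64. In AE17 none of the 8 passed and the median was 0.21. Ifng itself was not analysed here.

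Of 7 endosomal processing genes 3 were lower at the pleural site in AB1. Ctss, the protease that makes the last cuts in the invariant chain, had a log2 fold change of -1.29 (adjusted p = 7.9e-06), beside -0.65 for Ctsh and -0.33 for Ctsz, while Lgmn, another endosomal protease, had -0.20 (adjusted p = 0.229). Of 6 genes of class II turnover and costimulation, 5 were lower and 1, March8, was higher. Cd86, a costimulatory ligand, had -1.26, Cd4, the co-receptor for class II, -1.24, Lag3, an inhibitory receptor for class II, -1.24, and March1, the ligase that removes class II from the surface, -0.84. Of these, 1 processing gene and 3 turnover or costimulation genes passed with lane as a covariate. In AE17 none of the 7 and none of the 6 passed.

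**Figure D5:**
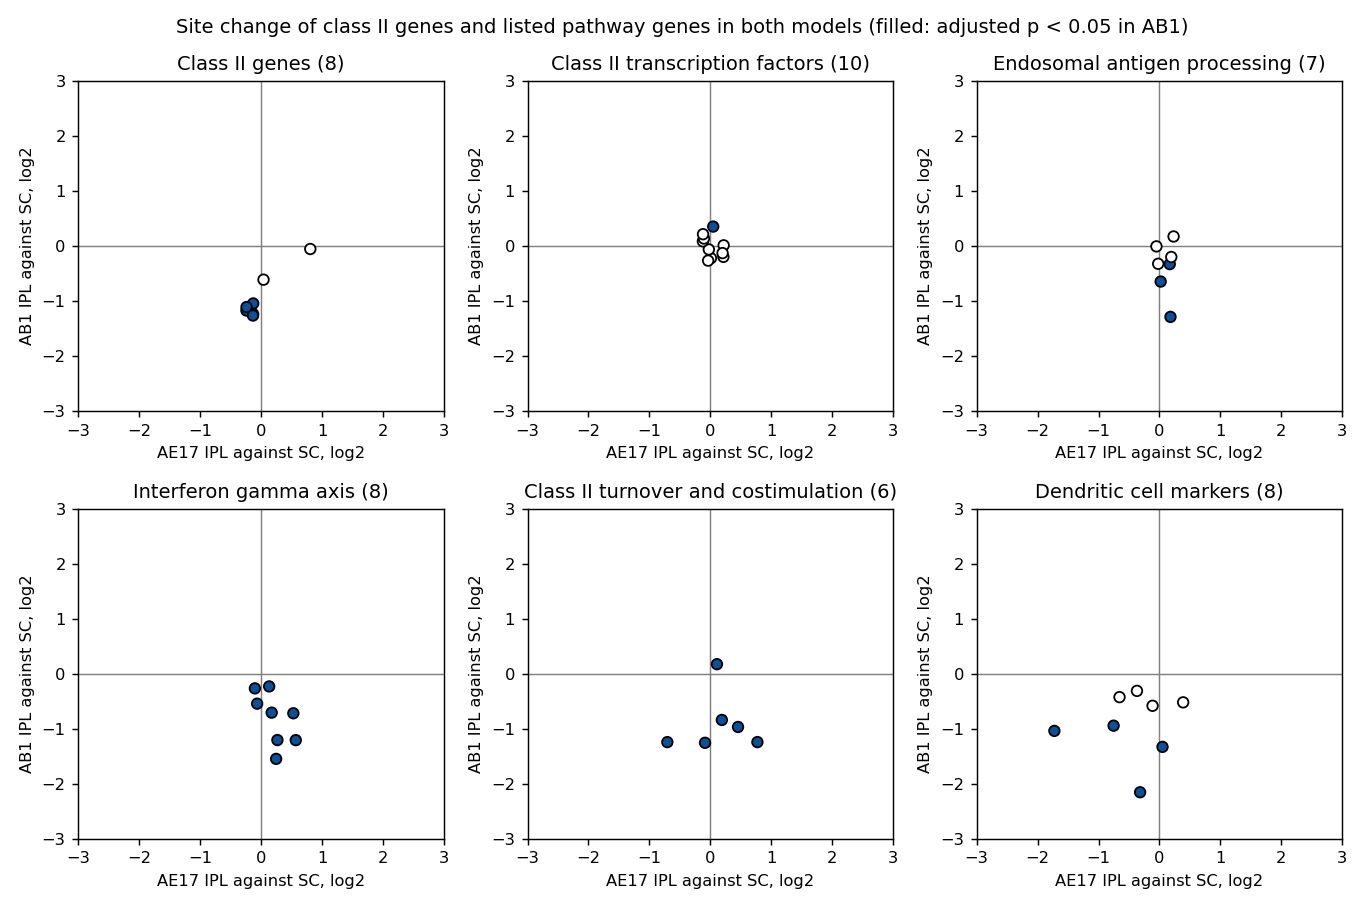
Log2 fold change of IPL against SC tumors in AB1 (vertical) and in AE17 (horizontal), with 1 point per gene tested and 1 panel each for the class II genes, class II transcription factors, endosomal processing, the interferon gamma axis, turnover and costimulation, and dendritic cell markers. Filled points have an adjusted p under 0.05 in AB1 (edgeR, 8 mice per group). The interferon gamma genes are all below 0 in AB1, with a median of -0.71, and have a median of 0.21 in AE17.

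The difference between the models passed for 20.5% of all genes. It passed for 7 of 8 interferon gamma genes, 3 of 7 processing genes and 4 of 6 turnover and costimulation genes, all more negative in AB1. Of the 10 transcription factors 3 passed, all more positive in AB1. Ctss had a difference of -1.45. With lane as a covariate 1 gene of each of the first 3 lists passed, and no transcription factor.

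All 11021 other genes that averaged 5 CPM or more were ranked by likeness to the members. Those that followed the mean of the 8 most closely within groups were Nod1 (Pearson's r 0.92 over 32 tumors), Plbd1 (0.92), Cd52 (0.91), Il10ra (0.91) and Dnase1l3 (0.90). Akna (0.90), Pik3cd (0.89), Unc93b1 (0.89) and Ppfia4 (0.89) were also among the 10 highest. The median r of all ranked genes was -0.06 and the upper 5% began at 0.66. In AB1, Plbd1, Cd52, Il10ra, Dnase1l3, Akna and Pik3cd also passed as lower at the pleural site, by log2 fold changes of -0.62 (Akna) to -1.53 (Dnase1l3), while Nod1 (-0.43, adjusted p = 0.0687) did not.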

How the data were processed

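The authors deposited 1 table of counts of reads per gene for 32 tumors (50-base single-end reads), which was not normalized. Bcl2fastq 1.8.4 and HISAT2 2.0.4 are named in the submitters' processing notes, and the strand setting of the counting is not given in the sources used here. All 32 value columns were matched to samples by their names, and 39495 of the 39676 genes were found in GENCODE M21 (GRCm38) once version suffixes were dropped. No pair of the 112 within groups was a copy (chi-square per degree of freedom 5.51 to 135). CPM used each tumor's total count multiplied by its TMM factor from all 32 tumors, and levels between genes were divided by exon length. Tests used R 4.3.3 and edgeR 4.0.16 (filterByExpr, TMM factors, robust quasi-likelihood F test, two-sided) within the groups compared, or in 1 fit of 4 groups for the difference between models, with Benjamini-Hochberg adjustment over all genes tested and a threshold of 0.05. The scripts were tested on simulated data. A count of 3 was taken as the floor, and floors cover counting error only. Residual correlations used log2 CPM with a prior count of 2.

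Alternatives were DESeq2 1.42.0 and its size factors, limma 3.58.1 (voom with quality weights), no filter, the replicate number as a block, lane as a covariate or within 1 lane, all 32 mice in 1 fit, and each tumor left out in turn. Leaving out AE17 IPL replicates 5 and 8 together, the comparisons between models in 1 fit of all mice with or without lane, and the AACNNATG spelling, were chosen after seeing the data. The genes, lists and comparisons were chosen with earlier results of these data known. Genes named are the members, H2-Ea-ps, H2-Eb2, a fixed set of regulators and processing genes, up to 3 passing genes of each list by size of change, and the 10 genes most like the members, of which some are not reported here. Promoters came from RefSeq (GRCm38.p6). Figures were drawn with matplotlib 3.10.9.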

Additional observations from a re-analysis of the deposited data

Results flagged for a closer look

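The change between IPL and SC tumors differed between the models (AB1 minus AE17 on the log2 scale, edgeR, 1 fit of 32 mice) for 8 of 17 members and fixed regulators checked, where 20.5% of all genes passed. The difference was -0.93 for H2-DMa (adjusted p = 0.0147), -1.11 for H2-DMb1 (0.00984) and -1.09 for H2-DMb2 (0.0111). It was -1.45 for Ctss (adjusted p = 1e-04), -0.86 for Irf1 (0.00297) and -1.01 for March1 (0.0111). Rfxank (0.32, adjusted p = 0.0421) and Rfxap (0.35, 0.0213) had differences of the opposite sign. With lane as a covariate none (0) of the members and none (0) of the class II transcription factors passed. In that fit 1 gene passed in each of the lists that hold Ctss, Irf1 and March1.

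Within groups of 8 tumors, the highest and the lowest values of each member and of H2-Ea-ps and H2-Eb2 were checked for a wide gap to the others. H2-Ea-ps in AE17 SC replicate 6 stood apart at 1.63 CPM. This was 1 of 40 groups checked, where chance gives about 1 in 20.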

How the results depend on the processing

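The 6 presenting and DM chains were lower in AB1 IPL than in AB1 SC tumors under every alternative without a lane term, and 6 to 7 of the 8 genes passed when 1 tumor was left out. With limma-voom 7 passed, where 4615 of 14645 genes did, since H2-Oa was also called lower (-0.84, adjusted p = 0.00427). A lane covariate left 3, and within lane 3 none (0) passed. In AE17 none (0) passed under any alternative. For the difference between models, 6 passed with limma-voom (4606 of 15681 genes did), 0 with lane as a covariate (117 genes) and 3 to 4 with 1 tumor left out (2722 to 3664 genes). Between AB1 and AE17 SC tumors, 3 passed with the replicate block, where 8847 of 14718 genes did, and 3 to 5 with 1 tumor left out (9084 to 9663 genes). Between IPL tumors, 5 passed with DESeq2 (10569 of 22778 genes did) and with limma-voom (9968 of 14886), in both without H2-Ob (-0.72 and -0.66). Without the filter 3 passed (10432 of 28810 genes) and with the replicate block 2 (8265 of 14886). Without AE17 IPL replicates 5 and 8, 3 passed (8420 of 15154 genes), and with 1 tumor left out 3 to 5 (8422 to 9208 genes). Lane could not be fitted within the 2 groups of either comparison between the models, whose lanes did not overlap, but it could in 1 fit of all 4 groups. That fit gave 3 calls between SC tumors (9138 of 15681 genes passed) and 6 between IPL tumors (9940 genes). With lane as a covariate it gave 1 (H2-DMb2) and 0, where 5268 and 5008 genes passed.

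The replicate numbers did not pair the tumors: same-numbered AB1 tumors had residual correlations of -0.287 to -0.003 and AE17 tumors of -0.227 to 0.271, between models -0.329 to 0.212. With the replicate block, the calls of H2-Oa (-0.49) and H2-Ob (-0.48) between SC tumors were lost.

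Signs turned only for genes that had not passed. In AB1 the log2 fold change of H2-Ob between sites was 0.0255 with lane as a covariate and -0.23 to 0.11 with 1 tumor left out. In AE17 that of H2-Oa was -0.40 with limma-voom, -0.0326 with the replicate block, -0.51 without AE17 IPL replicates 5 and 8 and -0.25 to 0.16 with 1 tumor left out. That of H2-Ob was -0.0773 with limma-voom and -0.36 without both replicates, and that of H2-Eb1 was -0.27 to 0.0047 with 1 tumor left out. The difference between models for H2-Ob was 0.32 without both replicates. Between SC tumors, H2-Aa was 0.0061 with the replicate block, 0.17 in the fit of all mice with lane as a covariate and -0.23 to 0.0492 with 1 tumor left out, and H2-Ab1 was -0.0489 to 0.21. Between IPL tumors, H2-DMa was -0.11 to 0.0664. The cause was not tested. The numbers of all genes that passed also moved, in AB1 from 3374 to 386 with lane as a covariate and 169 within lane 3. In AE17 they moved from 840 to 1768 with DESeq2, 3959 with limma-voom, 1324 in 1 fit of all mice and 550 without the filter. They were 1 with lane as a covariate there, 14 within lane 1 and 316 to 2066 with 1 tumor left out. For the difference between models they moved from 3212 to 117 with lane as a covariate. In the fit of all mice, adding lane moved them from 9138 to 5268 between SC tumors and from 9940 to 5008 between IPL tumors. The fits of the 2 groups alone had 9370 and 8793. At 14 to 131 reads of H2-Oa per tumor, depth limits what the DO chains can show.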
